A study of Mus musculus with 6 samples.

Results

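The contrast described here set 2 arrays that carried the marker genes of ovary against 2 arrays that carried the keratins of stratified epithelium. The 4 arrays belong to a series of 6, in which RNA from brain, ovary and uterus of female BALB/c mice, an inbred albino strain, was hybridised as 1 Cy5-labelled sample per array. Mice labelled mock had no treatment, and mice labelled SHT were given Sheng-Hua-Tang, a decoction of several herbs used in Chinese medicine after childbirth, at 200 mg/kg by mouth on 7 days in a row. Each tissue and treatment held 1 array. The sources used here give no age, no number of mice behind an array and no part of the organ that was taken. The ovary-marker pair consisted of the arrays labelled SHT brain and mock uterus, and the keratin pair of those labelled mock ovary and SHT uterus. The pairs were chosen by measured values of these arrays (Hsd3b1, Inha and Zp2 against Krt5 and Krt14) and not by their labels, and the genes by the order of their values on the same 4 arrays. A difference between the pairs is therefore a description with no test. By label each pair holds 1 mock and 1 SHT array, so the contrast is not one of treatment, and an effect of treatment was not tested. The other 2 arrays of the series carried brain genes, bear the labels mock brain and SHT ovary, and serve as a reference level and in the choice of a gene's probe. Of 17742 named genes, 10748 averaged more over the 4 arrays than the median probe did, a limit called the level floor here. Of these, 3642 read higher on both arrays of the ovary-marker pair than on both of the keratin pair, and 2592 read higher on both arrays of the keratin pair.

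The markers went against the tissue label on 3 of the 4 arrays, those labelled SHT brain, mock uterus and mock ovary. All values below are deposited intensities in linear units, given for SHT brain and mock uterus and then for mock ovary and SHT uterus, or in the reverse order of pairs where the keratin pair is named first. Array medians lay between 179 and 224. As a measure of background, the 95th percentile of 544 olfactory receptor probes lay between 270 and 527 per array, and a reading under its array's percentile is called inside the background. A fold compares pair means after each array was centred on its median, and stands as "at least" where the dimmer pair read inside the background on either array, with the percentile in place of the value, or where a reading was at the top of the scale. All 8 ovary markers on the arrays were above the background on both arrays of the ovary-marker pair and 1 was on each of the other 4 arrays, namely Foxl2 on the keratin pair and Inha on the other 2. The 8 include Hsd3b1, Inha and Zp2, by which the pairs were chosen, so the direction of these was fixed beforehand. Hsd3b1, an enzyme that makes progesterone, read 40566 and 51780 on the ovary-marker pair and 84.4 and 65.3 on the keratin pair, Inha, the inhibin alpha subunit, 19107 and 29563 against 119.9 and 189.6, and Zp2, a protein of the egg coat, 4579 and 8992 against 59.8 and 61.6. The squamous markers ran the other way, with all 7 above the background on the keratin pair and 3 on each of the other 4 arrays. The 7 include Krt5 and Krt14, by which the pairs were chosen. Krt5, a keratin of basal cells, read 36716 and 29948 on the keratin pair and 104 and 115 on the ovary-marker pair, and its partner Krt14 read 65580 and 64964 against 600.1 and 639. Uterine markers were split. Of 7 on the arrays, Hoxa10, Hoxa11, Esr1 and Pgr were higher on both arrays of the keratin pair and Ltf, Foxa2 and Wnt7a overlapped. On the keratin pair 5 and 6 of them were above the background, and on the ovary-marker pair 6 and 4. The keratin pair is for that reason named by its leading genes, and no tissue is assigned to it. Across all 26423 probes, which are not independent replicates, the log2 values correlated at 0.981 within the ovary-marker pair and 0.972 within the keratin pair, and at 0.909 to 0.943 between arrays of different pairs.

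**Figure D1:**
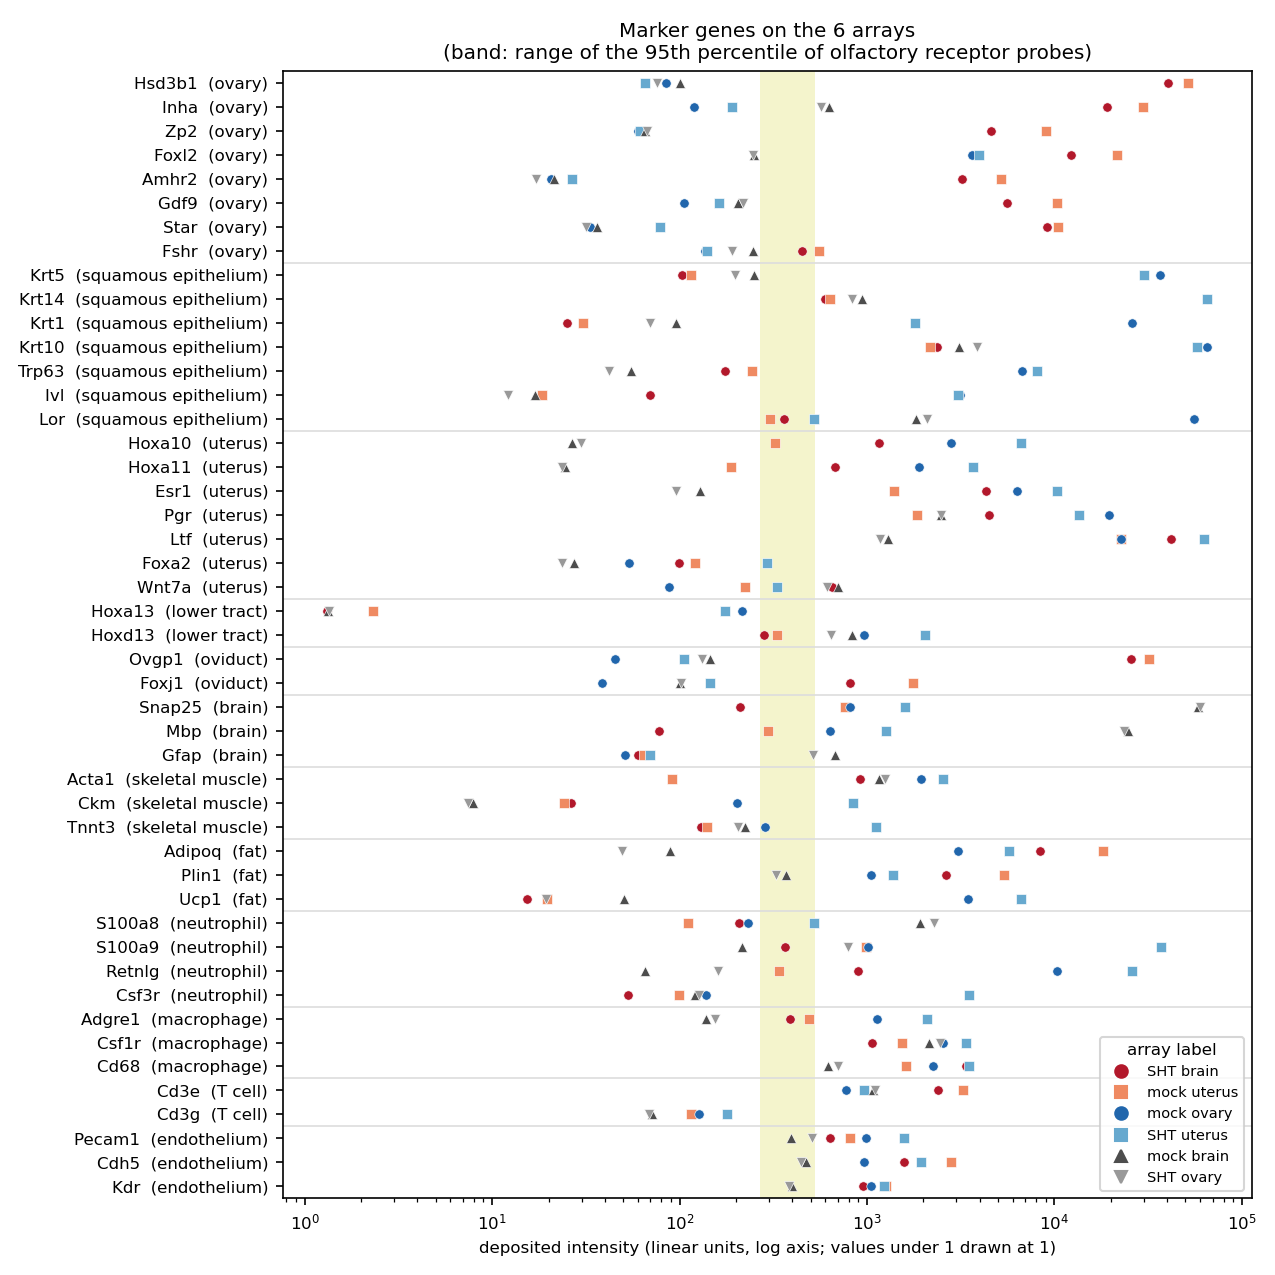
Deposited intensity (log axis) of the marker genes of 12 cell types or tissues on the 6 arrays, with 1 point per array and the band giving the range over arrays of the 95th percentile of olfactory receptor probes. Ovary markers such as Hsd3b1 sit far to the right on the arrays labelled SHT brain and mock uterus (red and orange), squamous markers such as Krt5 on those labelled mock ovary and SHT uterus (dark and light blue), and Snap25 on those labelled mock brain and SHT ovary (grey).

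The ovary combines a germ line, in which each oocyte lies inside a follicle of granulosa and theca cells, with steroid-producing luteal tissue that forms after ovulation. Luteal cells take up cholesterol and turn it into progesterone. Granulosa cells release oestrogen and also secrete inhibin, which holds back follicle-stimulating hormone from the pituitary. Stratified squamous epithelium, which lines the vagina and outer cervix as well as the skin, renews itself from a basal layer marked by Krt5 and Krt14. Its upper layers build a cornified envelope from proteins such as involucrin and the Sprr family, held together by desmosomes. The uterine horns are lined instead by a simple epithelium over a stroma and smooth muscle.

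Promoter letters are shown for 5 genes of the largest gaps that had a RefSeq promoter and a match to a motif of the factors named below. The stretches end at the base before the RefSeq start site, on build GRCm38.p6, and capitals mark only matches to the motifs named with each gene, while matches to other motifs searched stay in lower case. Amhr2, the anti-Müllerian hormone receptor gene, lies on the plus strand at chr15:102445117-102445366, and the capitals mark AAGGTCA, the site read by the nuclear receptors Nr5a1 and Nr5a2, which were themselves higher on the ovary-marker pair. Among the 19 genes of the largest gaps on that side with a promoter, only Amhr2 held this motif. On the keratin side Duoxa1 held it.
Amhr2: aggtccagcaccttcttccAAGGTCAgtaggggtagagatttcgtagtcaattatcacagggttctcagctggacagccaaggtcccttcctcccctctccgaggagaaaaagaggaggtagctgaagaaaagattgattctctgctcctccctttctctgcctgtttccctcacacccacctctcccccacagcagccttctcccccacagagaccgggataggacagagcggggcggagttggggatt
Krtdap, a gene of keratinocyte differentiation with the largest gap of the contrast, lies on the plus strand at chr7:30787785-30787904, and the capitals mark an AP-1 site (TGANTCA, read by Fos and Jun factors) and a TATA box (TATAAA).
Krtdap: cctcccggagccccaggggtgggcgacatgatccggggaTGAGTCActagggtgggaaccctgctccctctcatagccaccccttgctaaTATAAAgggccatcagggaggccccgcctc
Sprr2d, a cornified envelope precursor, lies on the plus strand at chr3:92338920-92339139, with the same 2 motifs in capitals.
Sprr2d: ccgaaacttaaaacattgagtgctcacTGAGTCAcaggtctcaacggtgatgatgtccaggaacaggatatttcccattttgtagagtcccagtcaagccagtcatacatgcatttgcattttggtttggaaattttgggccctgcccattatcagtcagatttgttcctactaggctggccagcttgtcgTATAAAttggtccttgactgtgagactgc
Krt13, a keratin of moist stratified epithelia, lies on the minus strand at chr11:100120578-100120787, with 2 AP-1 sites in capitals at the second of its RefSeq start sites.
Krt13: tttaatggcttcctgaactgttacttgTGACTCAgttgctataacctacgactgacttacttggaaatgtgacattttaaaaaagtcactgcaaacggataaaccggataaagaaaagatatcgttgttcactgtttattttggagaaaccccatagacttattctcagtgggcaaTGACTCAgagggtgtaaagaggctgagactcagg
Ovgp1, the oviduct glycoprotein, was higher on the ovary-marker pair and is shown because it too holds an AP-1 site, on the plus strand at chr3:105973682-105973801.
Ovgp1: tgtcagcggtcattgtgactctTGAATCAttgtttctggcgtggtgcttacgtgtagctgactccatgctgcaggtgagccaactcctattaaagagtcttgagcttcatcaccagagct

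Over all 32851 RefSeq promoter windows (250 bases before to 50 after a start site, both strands read), 7.81% held the AP-1 motif TGANTCA. Among genes above the level floor the share was 5.39%. It was 12.9% of 473 promoters of genes at least 2-fold higher on the keratin pair and 4.23% of 449 promoters of genes at least 2-fold higher on the ovary-marker pair. The TATA box TATAAA was in 7.83% of promoters above the floor, 15.6% of the keratin set and 7.8% of the ovary-marker set. For AAGGTCA the shares were 3.27% above the floor, 4.45% in the ovary-marker set and 3.59% in the keratin set, and over all windows 4.72%. The other motifs are given in the same order of sets: GCCNNNGGC of the Tfap2 factors was in 25.1% of promoters above the floor, 23.8% of the ovary-marker set and 21.6% of the keratin set, CCNCNCCC of Klf and Sp factors in 67.6%, 65.3% and 66.0%, GTTGCC of Rfx factors in 12.4%, 14.3% and 13.7%, and the homeobox motif TAATTG in 4.8%, 7.35% and 7.19%. The Trp63 motif, searched as one arm of its full site, was in 1.3%, 2.45% and 1.48%, and the CArG box of Srf in 1.29%, 0.668% and 1.9%. Promoters were found for 357 of 459 and 371 of 527 genes of the 2 sets. A match gives letters only and is not a bound site, and the shares were not tested.

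Of the 10748 genes above the floor, 3642 (33.9%) were separated with the ovary-marker pair higher and 2592 (24.1%) with the keratin pair higher, while 4514 (42%) overlapped between the pairs. The excess on the ovary-marker side depended on the scaling: without centring the counts were 2513 and 2443, and with each array raised to its 95th percentile of olfactory receptor probes 3791 and 1778. The gap of a gene is the log2 difference between the closest arrays of the 2 pairs. With a gap of at least 1, which is 2-fold, 459 genes (4.27%) were higher on the ovary-marker pair and 527 (4.9%) on the keratin pair. The 2-fold sets reached far: 177 and 191 genes had a gap of at least 2, 81 and 104 of at least 3, and 27 and 36 of at least 5. These shares are also the background against which the members of each gene list are read. The lists keep the genes that chose the pairs, whose direction was fixed by that choice. These are Hsd3b1 in the steroid list, Inha in the granulosa list, Zp2 in the oocyte list, and Krt5 and Krt14 in the keratin list. Between pair means the median signed difference was 0.09 in log2 units, and the median size of the difference, whatever its sign, was 0.41. Between the arrays within a pair the median size was 0.27 for the ovary-marker pair and 0.35 for the keratin pair. At the edge of the 2-fold sets, Tmem171 lay just inside with closest arrays 2.001-fold apart, and Mfap5, a microfibril protein, with 2.005-fold, while Arhgap25 at 1.998-fold and Fap at 1.996-fold lay just outside. At the edge of separation, Abcf1 and Zdhhc4 were just inside and Bckdk and Polh just outside, with closest arrays nearly equal.

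**Figure D2:**
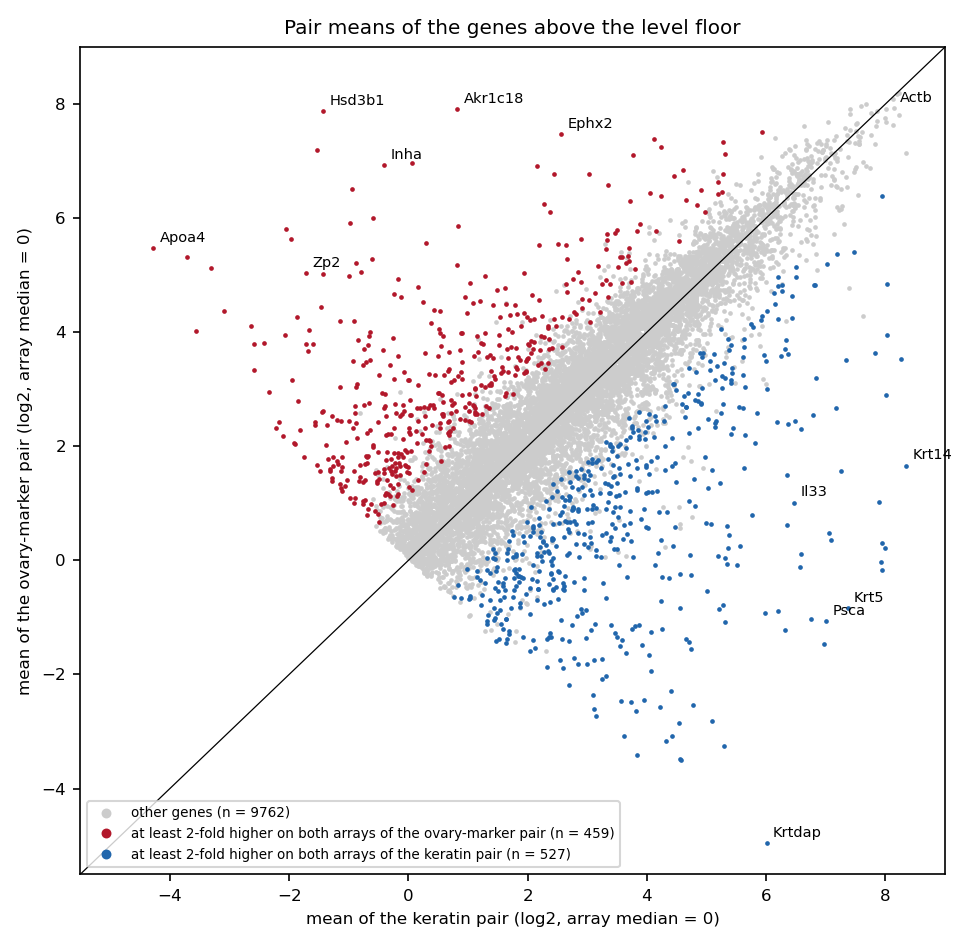
Mean log2 intensity of each gene above the level floor on the keratin pair (x axis) and the ovary-marker pair (y axis), with each array's median at 0 and the line of equality drawn. The 459 genes at least 2-fold higher on both arrays of the ovary-marker pair are red and the 527 at least 2-fold higher on both arrays of the keratin pair blue, and the empty corner at the lower left is made by the level floor.

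Leaving out 1 array loosens the requirement on the pair it leaves, so each count could grow, and how far depended on the array. Without the array labelled SHT uterus, 1013 genes were at least 2-fold higher on the ovary-marker pair and 827 on the other side, which was then the array labelled mock ovary alone. Without mock ovary the counts were 687 and 780, without SHT brain 789 and 912, and without mock uterus 570 and 717. Of the 459 genes, between 389 and 459 stayed in the set, and of the 527, between 453 and 527, and those lost fell under the level floor, since leaving out an array can only widen a gap. Which side held more 2-fold genes therefore turned with the array labelled SHT uterus. It also turned, to 423 and 396, when each array was raised to its 95th percentile of olfactory receptor probes.

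The genes with the largest gaps were almost all read only on 1 pair. Of the 25 named in each direction, 24 of the ovary-marker pair and 23 of the keratin pair read inside the background on the dimmer pair, so their folds are lower bounds and set no order among them. On the ovary-marker side the gaps ran from 5.39 for Gdf9, an oocyte growth factor, to 9.24 for Apoa4, an apolipoprotein. Apoa4 read 6869 and 11050 on the ovary-marker pair and 11.03 and 9.65 on the keratin pair. Serpina5, a protease inhibitor, read 7382 and 8238 against 14.4 and 16.3. Both were above the background only on the ovary-marker pair. By what they are known to do, the other 23 fell into steroid enzymes and their regulators (Hsd3b1, Hsd17b1, Star, Akr1c18, Akr1cl, Nr5a1, Nr5a2), granulosa genes (Inha, Amhr2), oocyte genes (Nlrp14, Padi6, Zp2, Rfpl4, Khdc1b, Ooep, Gdf9), the oviduct gene Ovgp1, and others such as the monoamine transporter Slc18a2, the amino acid transporter Slc38a5, the oxidase Hao2, cardiac troponin Tnni3 and Apoa1. This grouping was made after the values were seen. On the keratin side the gaps ran in size from 5.71 for Mt4, a metallothionein of stratified epithelia, to 10.04 for Krtdap. Krtdap read 21720 and 7649 on the keratin pair and 0.961 and 2.65 on the ovary-marker pair. Next came Psca, a surface antigen of epithelia, with 21133 and 31374 against 89.3 and 98.8, and Krt5. Of the 25, 11 were keratins (Krt1, Krt4, Krt5, Krt6a, Krt6b, Krt13, Krt14, Krt15, Krt16, Krt17 and Krt23), and others served the junctions (Dsg1a, Col17a1), the cornified envelope (Sprr2d) or hydrogen peroxide release at epithelial surfaces (Duox1 and its partner Duoxa1). Ucp1, the uncoupling protein of brown fat, read 3460 and 6623 on the keratin pair and 15.3 and 19.6 on the ovary-marker pair, at least 16.7-fold. The probe named Actn4, after an actinin that most cells use, read 4316 and 7029 on the keratin pair and 41.8 and 27.3 on the ovary-marker pair and 20.03 and 18.98 on the other 2 arrays. It was thus inside the background on 4 of 6 arrays, and no other measure of the gene bears on whether the probe reads it.

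**Figure D3:**
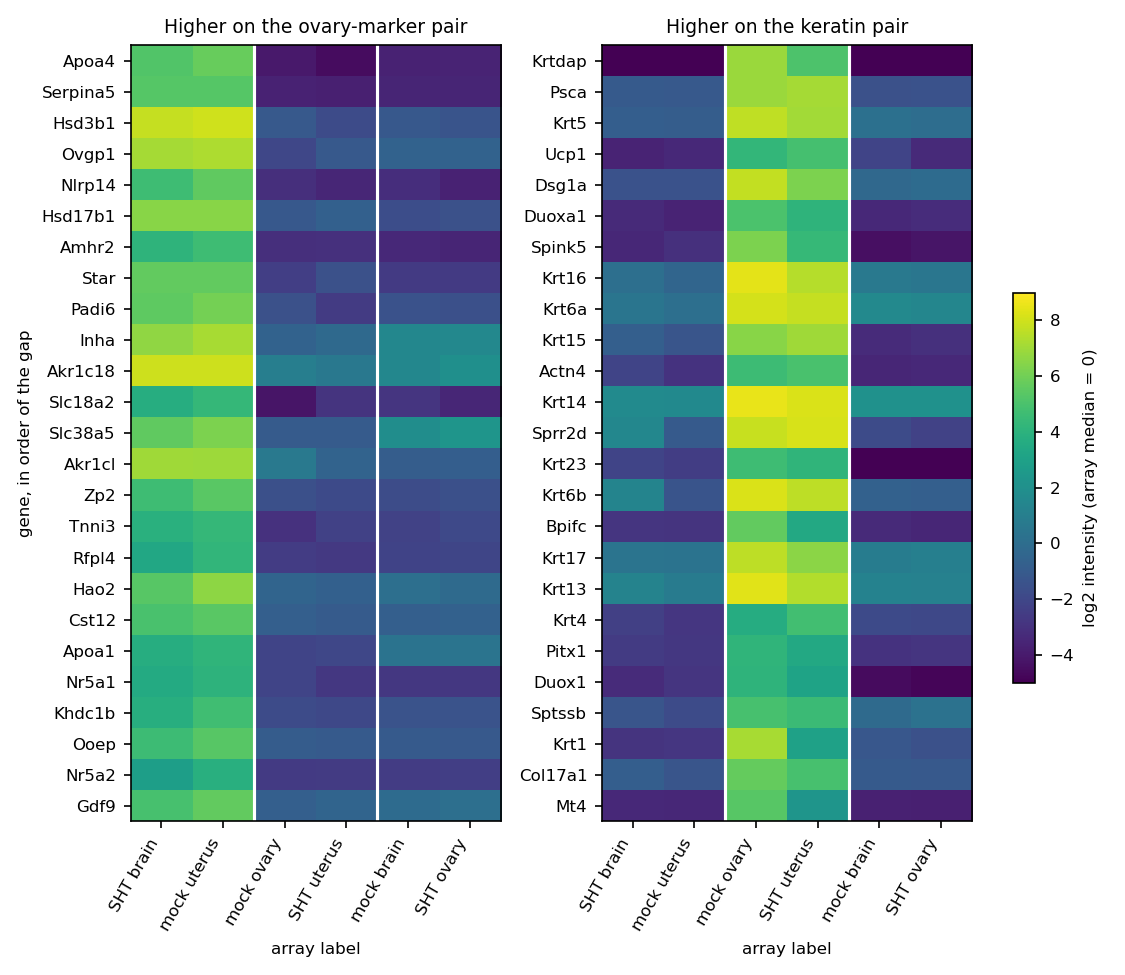
Heat map of log2 intensity (each array's median at 0) of the 25 genes with the largest gap in each direction, in rows, on the 6 arrays, in columns. In the left panel the 2 left columns are bright for all 25 genes, and in the right panel the 2 middle columns are, with Krt1 and Mt4 dimmer in the SHT uterus column than in the mock ovary column.

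Among genes above the background on all 4 arrays, where a fold is measured on both sides, Akr1c18 differed most. It encodes the enzyme that inactivates progesterone in the ageing corpus luteum, and it read 44640 and 49970 on the ovary-marker pair and 360.3 and 347 on the keratin pair, 137-fold. Ephx2, a soluble epoxide hydrolase, read 29504 and 41315 against 1008 and 1393, 30.2-fold. Scarb1, the receptor that takes up cholesterol from high-density lipoprotein, read 9625 and 23019 against 732 and 1299, 15.6-fold. Mrap, which helps the corticotropin receptor reach the membrane, differed 12.9-fold, the kinase-like Trib2 13.3-fold, and Birc5, a survival protein of dividing cells, 10.1-fold. In the other direction Krt13 read 60349 and 37781 on the keratin pair and 436 and 364 on the ovary-marker pair, 117-fold. Il33, an alarm cytokine of epithelial nuclei, read 14055 and 22365 against 359 and 435, 43.8-fold, and Lgals7, a galectin of stratified epithelium, 62052 and 43261 against 1055 and 2024, 34.6-fold. Fabp5, an epidermal fatty acid binding protein, was 31.3-fold and Serpinb11 20.2-fold higher on the keratin pair. Only genes separated between the pairs were taken here, so none of these could overlap.

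Steroid hormone synthesis was carried by the ovary-marker pair. Of 15 listed genes on the arrays, 14 were above the floor, and of these 11 were higher on both arrays of the ovary-marker pair, 0 on the keratin pair and 3 overlapped, with 9 at least 2-fold apart. The list median was 4.95 on the log2 scale, or 3.09 with members at their bounds, against 0.09 for all genes above the floor, and stayed between 4.43 and 5.47 when any 1 array was left out. Star, which carries cholesterol into the mitochondrion, read 9160 and 10428 on the ovary-marker pair and 33.3 and 78.3 on the keratin pair. Its second probe, the dimmer of 2, separated the same way with a gap of 5.13. Hsd17b1, which makes oestradiol, read 16769 and 19134 against 79.7 and 136, and Akr1cl, an aldo-keto reductase, 23595 and 25656 against 285 and 153. Fdx1, the ferredoxin that feeds electrons to steroid cytochromes, was also read on the keratin pair, with 25575 and 34337 against 4351 and 3291, 8.02-fold. The 2 receptors that drive this programme, Nr5a1 and Nr5a2, read 2174 and 3495 against 40.8 and 34.3 and 1327 and 2981 against 29.4 and 37.97. Hsd17b7, which serves both oestradiol and cholesterol synthesis, overlapped, since it read 1923 and 12272 against 2297 and 2567 and so was high only on the array labelled mock uterus. Cholesterol synthesis itself showed little of this. Of 11 genes above the floor 5 were higher on the ovary-marker pair and 6 overlapped, beside 33.9% and 42% of all genes above the floor. The list median was 0.19, which ran from -0.08 to 0.60 as arrays were left out. Its largest member was Soat1, which stores cholesterol as esters, with 1577 and 3469 against 253 and 724, at least 5.05-fold. In whole tissue, fewer cells of a type and less RNA per cell cannot be told apart, here and in every list below.

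Granulosa genes followed. Of 13 genes above the floor, 11 were higher on the ovary-marker pair, 10 of them at least 2-fold, and 2 overlapped, with a median of 2.43. Amhr2, whose promoter is shown above, read 3199 and 5166 on the ovary-marker pair and 20.6 and 26.8 on the keratin pair. Fst, which binds activin, read 3143 and 5305 against 173 and 421, at least 11.6-fold, and Esr2, the oestrogen receptor of granulosa cells, 2316 and 2741 against 198 and 679, at least 5.62-fold. Foxl2, the forkhead factor that maintains granulosa identity, was not confined to one side: it read 12312 and 21556 against 3641 and 3942, 4.404-fold, with both arrays of the keratin pair well over their background and the other 2 arrays at 249.8 and 246. Of the activin subunits, Inhba read 1132 and 853 against 323 and 183, while Inhbb overlapped with 8751 and 7586 against 15644 and 7714. Gatm overlapped as well. In the luteal and theca list, 5 of 7 genes above the floor were higher on the ovary-marker pair and 2 overlapped. Ptgfr, the receptor through which prostaglandin ends the corpus luteum, read 1766 and 2852 against 65.4 and 254, at least 7.36-fold, and Sfrp4, a Wnt inhibitor of luteal cells, 11004 and 17832 against 7577 and 5755, 2.17-fold. Parm1 was higher on the ovary-marker pair too, with 986 and 1520 against 298 and 625, but read more on the 2 arrays with brain genes, 10300 and 12728.

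Oocyte genes stood on the ovary-marker pair. Of 24 on the arrays, 14 were above the floor, of which 13 were higher on the ovary-marker pair, 11 at least 2-fold, and 1, Ddx4, overlapped. Their median was 4.37, or 3.15 at their bounds. Nlrp14 and Padi6, proteins of the egg cytoplasm, read 4694 and 10001 against 20.7 and 19.7 and 8591 and 13923 against 62.4 and 37.4. Gdf9, which signals from the oocyte to granulosa cells, read 5620 and 10370 against 106 and 162, and Ooep, part of the same subcortical complex as Padi6, 4410 and 8629 against 93.7 and 108. Tle6, another member of that complex, was read on all 4 arrays, with 3182 and 6612 against 392 and 546, 10.2-fold. Kit, the receptor for the ligand from granulosa cells, was higher by 2.67-fold, with 3034 and 3414 against 819 and 1862, and read 3508 and 2557 on the other 2 arrays. In deposited intensity mock uterus read higher than SHT brain in each of these genes, and across the 14 genes the median difference within the pair was -0.66 (SHT brain minus mock uterus, log2). The other 10 oocyte genes fell under the level floor, all 10 with the ovary-marker pair higher, and in 8 both arrays of that pair were above the background. Zp3, the egg coat protein that binds sperm, was one of them, with 1641 and 3352 against 16.1 and 14.03.

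Genes of the oviduct and of motile cilia gave the same direction. Of 9 above the floor, 7 were higher on the ovary-marker pair, each at least 2-fold, and Tekt2 and Ccdc40 overlapped. Ovgp1, the oviduct glycoprotein, read 25536 and 31822 on the ovary-marker pair and 45.1 and 105 on the keratin pair, at least 93.4-fold. Foxj1, the master factor of motile cilia, read 815 and 1762 against 38.4 and 145, and Fam183b, a ciliary protein, 5021 and 8513 against 87.9 and 153. Fam183b was also read on the 2 arrays with brain genes, at 1038 and 1118. Tekt4 and Tekt1, tektins of ciliary microtubules, were at least 3.47-fold and at least 2.91-fold higher on the ovary-marker pair. Of the whole list of 17 genes, 12 and 14 were above the background on SHT brain and mock uterus and 2 and 3 on mock ovary and SHT uterus. Mesothelial genes in the list of simple epithelium ran alongside: Upk3b read 5207 and 7915 against 565 and 1056, 8.51-fold, and Msln, mesothelin, 1600 and 2784 against 89.5 and 293, at least 6.91-fold. Krt8 had the largest difference of pair means in that list, at least 11.8-fold higher on the ovary-marker pair, though with a gap of only 1.48. Upk1b ran the other way, with 1364 and 1679 against 2386 and 5177. In that list 7 of the 13 genes overlapped, beside 42% of all genes above the floor. The part of attached oviduct and surface epithelium in the contrast was not tested.

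Transcription factors of the ovary were mostly higher on the ovary-marker pair. Of 14, 11 were, with 6 at least 2-fold, and the median was 1.28. Gata6 and Gata4, which act in granulosa cells, read 3564 and 6846 against 528 and 1348 and 1257 and 2353 against 295 and 364, and their cofactor Zfpm2 687 and 1276 against 136 and 299. Wt1, a zinc finger factor of gonad and mesothelium, differed less, with 3544 and 4924 against 1212 and 3030, 2.23-fold. Foxo1, which holds back follicle growth, was 2.65-fold higher. Emx2 and Nr2f2 overlapped, and Cebpb was higher on the keratin pair by 1.15-fold. Cell cycle genes leaned the same way as the ovarian factors: 11 of 16 above the floor were higher on the ovary-marker pair, 4 at least 2-fold, 1 on the keratin pair and 4 overlapped, with a median of 0.96. Birc5 read 6519 and 12566 against 694 and 1217, and of its other 2 probes, both separated the same way, 1 had a gap of 0.47 and 1 of 0.07. Ccnb2, a mitotic cyclin, read 726 and 727 against 293 and 132, Aurka, a mitotic kinase, 1301 and 1887 against 488 and 391, and Top2a, which untangles replicated DNA, 2806 and 3186 against 1369 and 953. The subunit Rrm2 of ribonucleotide reductase was the exception, with 1274 and 1755 against 2189 and 2072.

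Basal and squamous keratins were uniform in direction: 14 of 14 above the floor were higher on the keratin pair by 2-fold or more, and 0 overlapped. The median was -6.83 (ovary-marker pair minus keratin pair), or -6.40 at their bounds, and lay between -7.46 and -6.49 without any 1 array. Krt16, a keratin of activated and fast-renewing epithelium, read 62254 and 39035 on the keratin pair and 196 and 155 on the ovary-marker pair. Krt6a and Krt6b, its partners, read 49602 and 49141 against 254 and 229 and 53780 and 43871 against 462 and 80.00. Krt15, of the basal layer, read 16387 and 28691 against 109 and 84.04, and Krt10, of the layers above, 65580 and 57851 against 2367 and 2175, at least 26.5-fold. Krt14 and Krt10 were at the top of the scale on the array labelled mock ovary. Between the arrays of the keratin pair, 4 of the 14 were at least 2-fold higher on mock ovary and 1 on SHT uterus. Krt1 read 25957 on mock ovary and 1813 on SHT uterus, and Krt76, of the palate and other hard mucosae, 16076 and 198, the latter inside the background. Krt4, of moist epithelium, went the other way with 2268 and 6167. Krt6a and Krt6b, like the Sprr2 genes, are near-identical copies, and whether their probes tell them apart is not known here.

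The cornified envelope followed the keratins, with more spread. Of 26 genes above the floor 23 were higher on the keratin pair, 18 at least 2-fold, and 3 (Sprr2f, Sprr2g and Lce1a1) overlapped. The median was -4.95, or -3.86 at the bounds, and moved between -6.24 and -3.58 as arrays were left out. Sprr2d read 40698 and 64181 on the keratin pair and 514 and 100.2 on the ovary-marker pair, and Sprr1b, another small proline-rich precursor, 15979 and 1164 against 23.1 and 23.1. Calml3, a calmodulin-like protein of keratinocytes, read 34103 and 20799 against 641 and 117, at least 60.2-fold, Tgm1, the transglutaminase that links the envelope, 12019 and 7537 against 229.9 and 234, at least 33.2-fold, and Ivl, involucrin, 3138 and 3044 against 69.8 and 18.5, at least 10.8-fold. Lor, the main envelope protein of skin, was separated by a gap of only 0.25: it read 55805 on mock ovary and 522 on SHT uterus, against 361 and 303. Crct1 and Rptn, encoded in the epidermal differentiation complex, read 50954 and 7242 against 204 and 217 and 31302 and 1912 against 102 and 127. Sprr2f overlapped in another way: the array labelled SHT brain read 39531, between the 21342 and 53527 of the keratin pair, while mock uterus read 733.

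Proteases and inhibitors of the epithelium were fewer above the floor, 9 of 18 on the arrays. Of these 5 were higher on the keratin pair and 4 overlapped, and the median of -3.58 was -1.29 without mock uterus and -5.57 without SHT brain. Spink5, which inhibits kallikreins in the upper epidermis, read 13613 and 4580 on the keratin pair and 16.9 and 24.99 on the ovary-marker pair, and Klk8, a kallikrein, 23423 and 1772 against 129.6 and 140.1. Serpinb5 and Serpinb2 were at least 6.04-fold and at least 10.6-fold higher. Spink12 overlapped, with 14628 and 192 against 10259 and 15948. Prss22 did too, with its reading of 12810 on SHT uterus alone far from the others (949.9, 44.5 and 496). Another 7 of the 9 genes under the level floor were higher on the keratin pair, among them Klk13 with 6159 and 1453 against 5.01 and 5.97.

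Junction genes were higher on the keratin pair in 11 of 16 cases, 9 at least 2-fold, while 4 overlapped and 1 was higher on the ovary-marker pair. Dsg1a, the desmoglein of upper epidermis, read 38367 and 16651 on the keratin pair and 66.5 and 76.1 on the ovary-marker pair, at least 88.1-fold. Pkp1, a plakophilin of stratified epithelium, read 23307 and 11396 against 253 and 359, at least 51.1-fold, and Col17a1, a collagen of the hemidesmosome, 9231 and 6844 against 103 and 83.6, at least 27.7-fold. Dsc3 and Dsc2, desmocollins, were 21.7-fold and 16.4-fold higher. Dsp, desmoplakin, which all desmosomes use, was read on all 4 arrays, with 65580 and 41552 against 8681 and 3675, the first of these at the top of the scale. The exception was Pkp2, a plakophilin of simple epithelia and heart, which was higher on the ovary-marker pair with 1810 and 1451 against 636 and 692, 2.502-fold. The hemidesmosome genes Lama3 and Lamb3 overlapped, since the array labelled SHT brain read 2075 and 3410, near the keratin pair, and mock uterus 271 and 317.

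Epithelial transcription factors followed suit, with 14 of 16 above the floor higher on the keratin pair, 12 at least 2-fold, 2 overlapping (Grhl2 and Elf3) and a median of -2.75. Pitx1, a homeobox factor of the hind body, read 3268 and 2468 on the keratin pair and 31.7 and 31.2 on the ovary-marker pair, at least 9.904-fold. Trp63, the p63 factor of basal cells, read 6690 and 8031 against 175 and 245, at least 25.6-fold, and its other 2 probes separated the same way. Zfp750 and Grhl1, which act in terminal differentiation, read 8704 and 7666 against 158 and 225 and 2830 and 1947 against 62.8 and 76.5. Tfap2c, an AP-2 factor, was at least 14.4-fold and Foxq1 at least 15.2-fold higher. Klf4, which works in the barrier layers, was read on all 4 arrays with 15040 and 10211 against 5997 and 529. Elf3, of simple epithelia, had the reading 11495 on SHT brain, 679 on mock uterus, 1144 on mock ovary and 5968 on SHT uterus, in no order of pairs. In the mucosal list 4 of 13 genes above the floor were higher on the keratin pair, each at least 2-fold, and 1 on the ovary-marker pair. The other 8 overlapped, beside 42% of all genes above the floor. The median of -1.42 was -0.63 without mock uterus, -0.86 without SHT uterus, -2.96 without mock ovary and -3.30 without SHT brain. Psca, Duox1, Duoxa1 and the antimicrobial Defb1 were the 4, with Defb1 at 839 and 2258 against 61.99 and 56.9, at least 4.801-fold. Agr2, which folds mucins, was the 1 of the other direction, with 3334 and 1661 against 544 and 148, at least 5.83-fold.

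Matrix and muscle genes were higher on the keratin pair by smaller amounts. Of 22 matrix genes above the floor 20 were higher there, 9 at least 2-fold, and Sparc and Pdgfra overlapped, with a median of -1.64. Lox, which cross-links collagen, read 6788 and 6898 on the keratin pair and 1031 and 331 on the ovary-marker pair, 11.4-fold. Pi16, of resting fibroblasts, read 2733 and 2573 against 231 and 266, at least 9.25-fold, and Postn, periostin, 15772 and 17142 against 3473 and 1648, 6.71-fold. Col1a2 was 4.504-fold and Fn1, fibronectin, 4.05-fold higher. The probe named Col1a1 fell under the level floor, unlike its partner chain: it read 78.7 and 158 against 204 and 240.1, inside the background on all 4 arrays, and 5731 and 5705 on the 2 with brain genes, and whether it reads Col1a1 was not tested. Of 9 smooth muscle genes above the floor, 8 were higher on the keratin pair, 7 at least 2-fold, and Casq2 overlapped. Pgm5 read 624 and 1608 against 87.3 and 65.4, at least 3.49-fold, Hspb7 4271 and 3193 against 581 and 214, at least 8.78-fold, and Des, desmin, 13588 and 7001 against 2175 and 711, 7.66-fold. Acta2, smooth muscle actin, differed only 1.34-fold, with 60854 and 59636 against 42276 and 45362. All 6 skeletal muscle genes above the floor were higher on the keratin pair, 4 at least 2-fold. Mb, myoglobin, read 511 and 2958 against 123 and 168, and Tnnc2, a fast troponin, 418 and 1924 against 109 and 134, so that the array labelled SHT uterus carried the larger values. Of the whole list of 11 skeletal muscle genes, 4 and 8 were above the background on the keratin pair and 2 and 0 on the ovary-marker pair, with summed intensities of 4400 and 12503 against 2014 and 1159. The part of striated muscle in the contrast was not tested.

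Fat genes were found on both sides. Of 11 above the floor, 5 were higher on the ovary-marker pair and 4 on the keratin pair, beside 33.9% and 24.1% of all genes above the floor. At least 2-fold apart were 1 and 1 of them, beside 4.27% and 4.9% of all genes above the floor. Counts this small are not read as a trait of the list. Adipoq, adiponectin, read 8371 and 18117 against 3070 and 5735, 3.01-fold, and the lipid droplet genes Plin1 and Cidec were 3.22-fold and 3.604-fold higher on the ovary-marker pair. Fabp4, of white and brown fat alike, overlapped with 11168 and 15615 against 14217 and 13816. Ucp1 and Cidea, both known from brown fat, were higher on the keratin pair, Cidea with 1719 and 3768 against 972 and 1270. The whole list summed to 72110 and 113359 on the ovary-marker pair and 57156 and 80896 on the keratin pair. Whether fat attached to the tissues bears on other lists was not tested.

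Immune genes leaned to the keratin pair, and in the neutrophil and chemokine lists SHT uterus mostly read highest. Of 9 neutrophil genes above the floor 8 were higher on the keratin pair, but only 2 at least 2-fold. Those were Il1r2, a decoy receptor, with 7718 and 7176 on the keratin pair and 75.4 and 155 on the ovary-marker pair, and Retnlg, a resistin-like protein of neutrophils, with 10316 and 26031 against 898 and 339. S100a9, a calcium-binding protein of granulocytes, read 37218 on SHT uterus but 1007 on mock ovary, next to 992 on mock uterus. The whole list of 16 had 13 genes above the background on SHT uterus and 6 on mock ovary, against 5 on each array of the ovary-marker pair. Its median of -2.56 was -0.77 without the array labelled SHT uterus and -4.97 without that labelled mock ovary. Of 19 chemokines and cytokines above the floor, 11 were higher on the keratin pair, 7 at least 2-fold, and 8 overlapped, and their median of -1.92 was -0.60 without SHT uterus and -3.12 without mock ovary. Ppbp and Cxcl5, chemokines that draw neutrophils, read 825 and 30701 against 69.9 and 81.9 and 1710 and 39504 against 259 and 202, and Cxcl3 369.7 and 10816 against 31.7 and 72.9. Il33 and Ccl11, which draws eosinophils, were higher on both arrays of the keratin pair by wide margins, Ccl11 with 36393 and 13352 against 3860 and 336, 18.9-fold. Among leukocyte genes 7 of 12 were higher on the keratin pair, with Ptprc, the leukocyte common antigen, at 999 and 2854 against 430.3 and 434 and the macrophage receptor Adgre1 at 1127 and 2097 against 386 and 491. Cd3e, a T cell receptor chain, ran the other way with 2394 and 3259 against 769.7 and 966, 3.32-fold, while its partner Cd3g read inside the background on all 4 arrays.

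Genes that pattern the reproductive tract were found on both sides. Of 11 above the floor, 5 were higher on the ovary-marker pair and 4 on the keratin pair, beside 33.9% and 24.1% of all genes above the floor. At least 2-fold apart were 3 and 4 of them, beside 4.27% and 4.9% of all genes above the floor. Counts this small are not read as a trait of the list. Hoxa10 and Hoxa11, which specify the uterus, read 2805 and 6642 on the keratin pair and 1163 and 324 on the ovary-marker pair and 1890 and 3669 against 678 and 188, and Hoxd13, of the hindmost tract, 961 and 2035 against 282 and 330.2, with 833 and 646 on the 2 arrays with brain genes. Isl1 read 609 and 1535 against 94.8 and 139.6, at least 3.37-fold. Hoxc8, Hoxd9 and Hoxd8 were higher on the ovary-marker pair, with 776 and 2001 against 128 and 178, 1896 and 3196 against 282 and 715 and 1777 and 2515 against 820.0 and 1006. Hoxa13, of the lower tract, was inside the background on all 6 arrays, at 214 and 175 against 1.31 and 2.32. In the Hoxa10 and Hoxa11 values the array labelled SHT brain read 1163 and 678, above mock uterus with 324 and 188, and no array of one pair crossed into the other.

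Of 14 hormone receptors above the floor, 5 were higher on the ovary-marker pair, 3 on the keratin pair and 6 overlapped, shares close to those over all genes. By at least 2-fold 2 were higher on each pair, beside 4.27% and 4.9% of all genes above the floor. Esr1 and Pgr, the oestrogen and progesterone receptors of the uterus, were higher on the keratin pair, with 6286 and 10351 on the keratin pair and 4327 and 1391 on the ovary-marker pair for Esr1 and 19510 and 13506 against 4452 and 1844 for Pgr, 3.21-fold and 5.53-fold. Esr2 and the receptor Fshr for follicle-stimulating hormone were higher on the ovary-marker pair, Fshr with 449 and 557 against 137 and 139.9. Vdr, the vitamin D receptor, was higher on the keratin pair by at least 3.29-fold. Nr3c1, Nr3c2, Ghr, Insr, Igf1r and Oxtr overlapped. In the ovulation list of 6 genes above the floor, 4 were higher on the keratin pair, including the protease Adamts1 with 7747 and 7542 against 2251 and 1130, 4.68-fold, and 1, Ptx3, on the ovary-marker pair.

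Oestrogen-responsive uterine genes did not follow the pairs. Of 15 above the floor 10 overlapped, beside 42% of all genes above the floor. Of the rest, 3 were higher on the ovary-marker pair and 2 on the keratin pair. The list median of -0.24 turned sign as arrays were left out, between -1.60 and 1.64. Ltf, lactoferrin, read 42062 on SHT brain, 22691 on mock uterus, 22638 on mock ovary and 62708 on SHT uterus. Clca1, a protein of mucus cells, read 65723, 917, 17905 and 4920 in the same order, with SHT brain at the top of the scale, and Lcn2, lipocalin, 29127, 742, 1817 and 27698. In these genes the array labelled SHT brain read with or above the keratin pair and mock uterus below it or level with it. Only Padi4 and Igf1 were at least 2-fold higher on the keratin pair, Padi4 with 8660 and 6570 against 1846 and 136, at least 10.1-fold, and Igf1 with 2485 and 4012 against 1144 and 993, 2.89-fold, where a second probe of Igf1 overlapped. Ihh, a hedgehog ligand of uterine epithelium and of granulosa cells, was at least 2-fold higher on the ovary-marker pair, with 1041 and 1613 against 193 and 182.

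Wnt genes were divided between the pairs. Of 16 above the floor, 9 were higher on the keratin pair, 7 of them at least 2-fold, 3 on the ovary-marker pair and 4 overlapped. Among ligands, Wnt5a read 5042 and 6406 on the keratin pair and 1895 and 1962 on the ovary-marker pair, and Wnt6 and Wnt2b were higher on the ovary-marker pair with 769 and 1746 against 144 and 240.2 and 449 and 621 against 124 and 166. Among inhibitors Dkk2 read 5512 and 12014 against 365 and 242, at least 24.4-fold, and Sfrp2 6172 and 15908 against 574 and 635, 16.03-fold, while Sfrp4 was higher on the ovary-marker pair. The agonist Rspo3 read 538 and 3660 against 201 and 283, and so was high mainly on SHT uterus. Of 11 endothelial genes above the floor 6 overlapped, beside 42% of all genes above the floor. Of the rest, 2 were higher on the ovary-marker pair and 3 on the keratin pair, none at least 2-fold. Prostaglandin and oxytocin genes overlapped in 9 of 11 cases, beside the same 42%. Ptgfr was higher on the ovary-marker pair and Ptgs1 slightly higher on the keratin pair. Of the blood list only Alas2, of haem synthesis, was above the floor, with 1047 and 975 against 690.3 and 684. Of 8 housekeeping genes 5 overlapped, again beside 42%, none was 2-fold apart and the median was 0.04. Actb read 45369 and 49788 against 56373 and 56394, and Rps3 774 and 751 against 666 and 905.

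**Figure D4:**
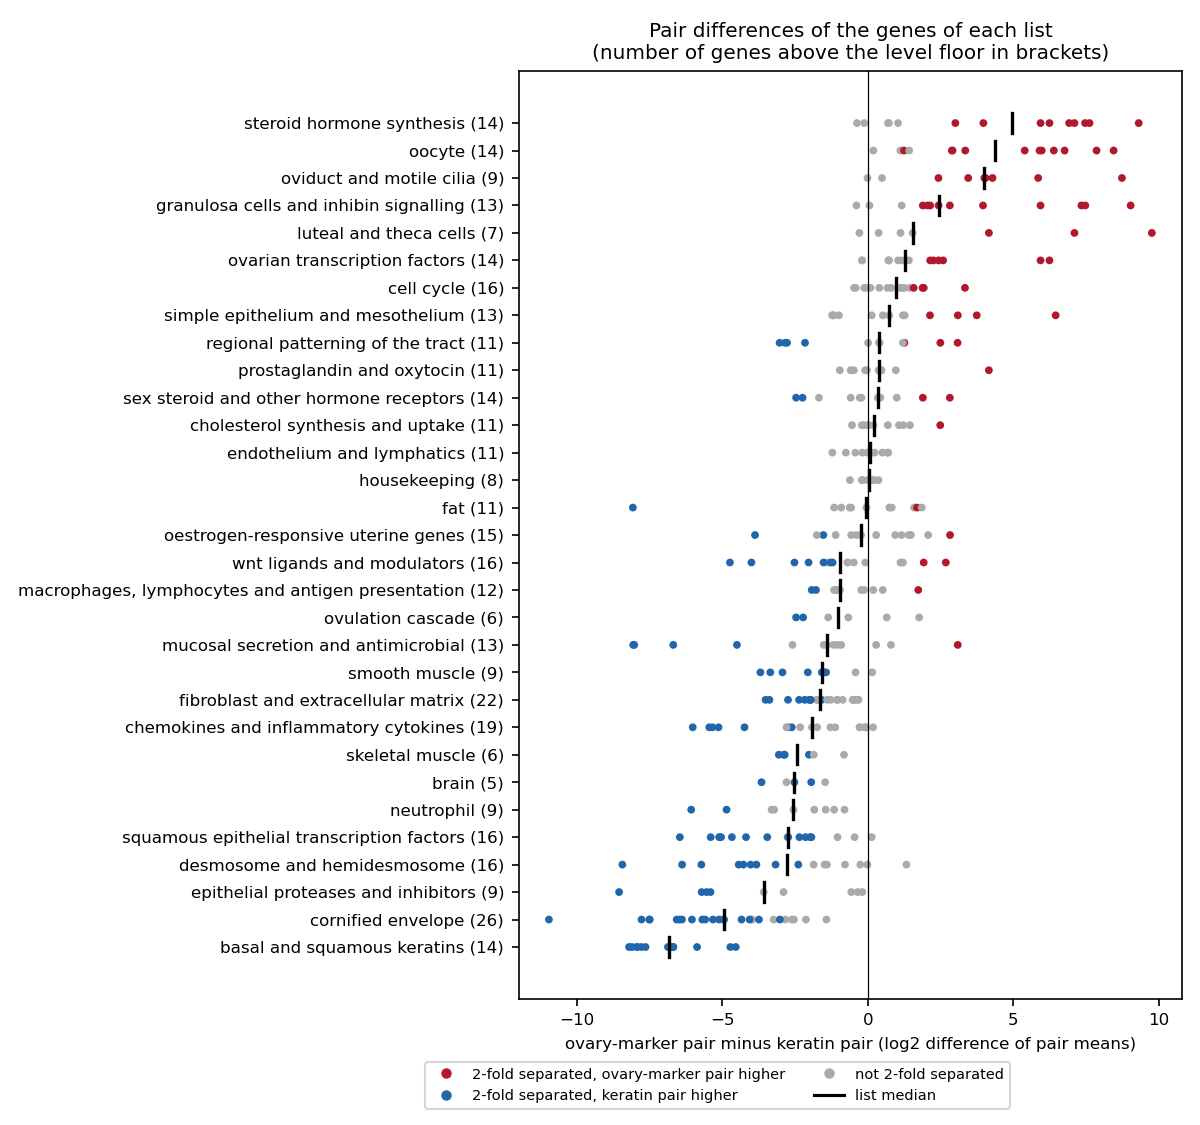
Log2 difference of pair means (ovary-marker pair minus keratin pair) for each gene above the level floor in the lists with at least 5 such genes, with 1 point per gene and the black bar at the list median. The list of steroid hormone synthesis has a median of 4.95 and that of oocyte genes 4.37, an order that turns to 3.09 and 3.15 with members at their bounds, and basal and squamous keratins sit lowest with -6.83, while housekeeping genes centre near 0.04.

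The arrays within a pair were not alike in every list. Of the 527 genes at least 2-fold higher on the keratin pair, 158 (30%) differed at least 2-fold between its own arrays, 109 with mock ovary higher and 49 with SHT uterus higher, against 10.6% of all genes above the floor. Of the 459 genes of the ovary-marker pair, 41 (8.93%) differed that much between its arrays, against 6.48% of all. Within the keratin pair, 18 of 26 cornified envelope genes were at least 2-fold higher on mock ovary and 2 on SHT uterus, with a median difference of 1.94. Lce3b, a late envelope gene, read 24739 and 314, and Sprr3 16274 and 991. The reverse held for 7 of 9 neutrophil genes, 11 of 19 chemokines and cytokines, and 7 of 13 genes of simple epithelium, which were at least 2-fold higher on SHT uterus. Epcam, an adhesion protein of simple epithelia, read 4938 on mock ovary and 17082 on SHT uterus, and Cxcl5 read 1710 and 39504. Within the ovary-marker pair, 10 of 15 oestrogen-responsive uterine genes and 9 of 13 genes of simple epithelium were at least 2-fold higher on SHT brain and 0 of either list on mock uterus. Fcgbp, a mucus protein, read 14185 on SHT brain and 472 on mock uterus, and Krt7 31008 and 2726. In the 527 genes of the keratin pair too, 80 were at least 2-fold higher on SHT brain than on mock uterus and 8 the other way. Each of these is a difference between 1 array and another, whose labels differ in tissue and in treatment, so the 2 cannot be told apart.

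**Figure D5:**
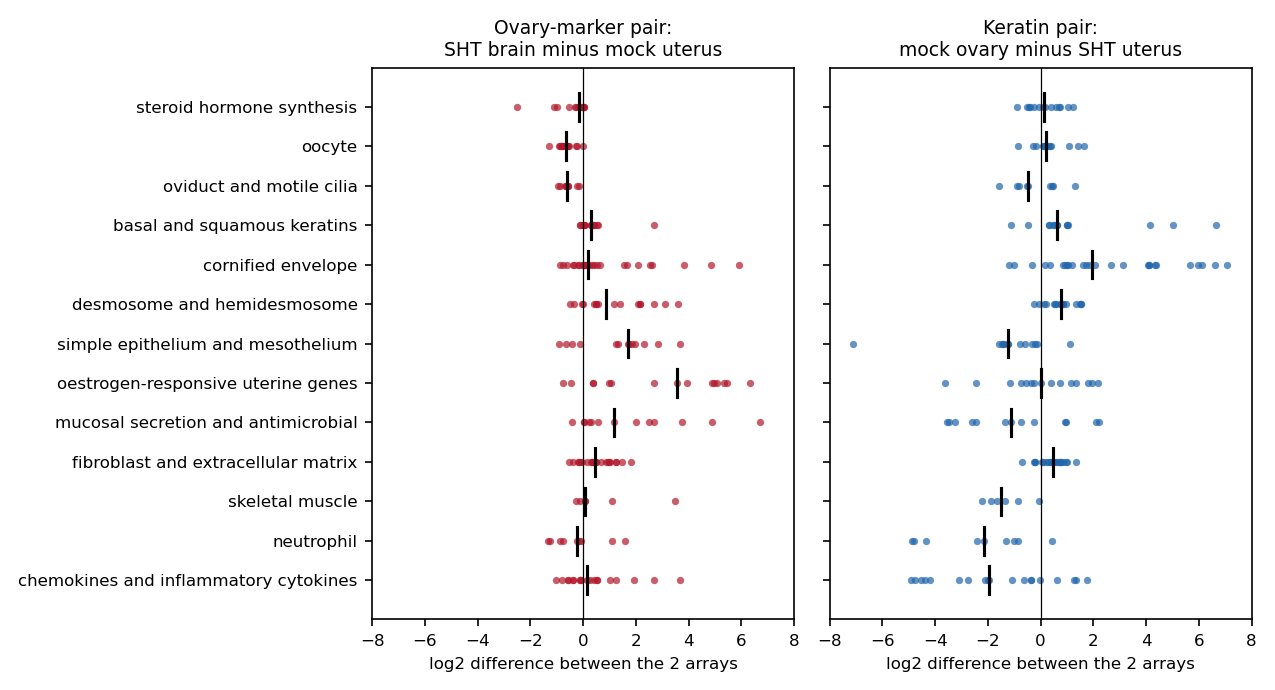
Log2 difference between the 2 arrays of the ovary-marker pair (left, SHT brain minus mock uterus) and of the keratin pair (right, mock ovary minus SHT uterus) for genes above the level floor in 13 lists, with 1 point per gene and the bar at the list median. Oestrogen-responsive uterine genes lie to the right in the left panel (median 3.56), and in the right panel cornified envelope genes lie to the right (median 1.94) and neutrophil genes to the left (median -2.14).

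The 2 arrays outside the contrast did not enter the gaps or the level floor, but did enter the choice of a gene's probe, made over all 6 arrays. Of the 459 genes of the ovary-marker pair 233 (50.8%) read inside the background on both, and of the 527 of the keratin pair 322 (61.1%), against 27.3% of all genes above the floor. A gene of these sets could pass the level floor through its higher pair alone, so these shares are not like for like. The 2 arrays both read below both arrays of the higher pair in 375 and 446 genes, and at or above both in 64 and 57. Genes known from brain were themselves unequal between the pairs. Of 5 above the floor, Snap25, Slc1a2, Gap43 and Stmn2 were higher on the keratin pair, the last 2 by at least 2-fold, at levels far under those on the arrays with brain genes. Gap43, a growth cone protein of neurons, read 2652 and 1385 against 131 and 168 and 18114 and 18252 on those 2 arrays, and Stmn2 542 and 869.6 against 152 and 198 and 14549 and 15109. Mbp, a myelin protein, read 636 and 1256 against 77.4 and 296, but its second probe separated the other way with a gap of 1.83, so it is left out of this count. Of the whole list of 9, 6 were above the background on each array of the keratin pair, 3 on mock uterus and 0 on SHT brain, and the defining astrocyte gene Gfap was inside the background on all 4. The source of these readings was not tested.

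Some genes of the 2-fold sets lay side by side. In RefSeq gene order among genes above the floor, 119 of 526 placed genes of the keratin pair (22.6%) had a neighbour in the same set, and 62 of 458 of the ovary-marker pair (13.5%), where the sets held 4.9% and 4.27% of these genes and a gene has a neighbour on either side. These shares were not tested. The longest runs held 4 genes. They were Gm5478, Krt6b, Krt6a and Krt5, then Krt1, Krt76, Krt4 and Krt78, both on chromosome 15, Sprr1b, Sprr3, Sprr1a and Ivl on chromosome 3, and Serpinb5, Serpinb11, Serpinb2 and Serpinb8 on chromosome 1. Krt14, Krt16 and Krt17 on chromosome 11 and Hoxa10, Hoxa11 and Hoxa11os on chromosome 6 were among the runs of 3. On the ovary-marker side Clu, Gulo and Ephx2 on chromosome 14 and Lrrc30, Lama1 and Arhgap28 on chromosome 17 formed runs of 3 as well. Pairs included Apoa1 with Apoa4, Hsd3b1 with Hao2 and Akr1c18 with Akr1c13. Related neighbours can share probe sequence, and the part of this in the runs was not tested.

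Other probes of the same genes and the probes of the background class bound these readings. Of 130 genes in the 2-fold sets with several probes, every other probe separated the same way in 107, another overlapped in 18 and another was opposed in 5. Of the 45 olfactory receptor genes above the floor, 17 were separated in one direction or the other, and 0 by 2-fold. Over all 10748 genes above the floor 6234 were separated, and 986 by 2-fold. Of 1500 probes above the floor with no gene symbol, 51 were at least 2-fold higher on the ovary-marker pair and 61 on the keratin pair, and they are unnamed here.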

How the data were processed

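Each of 6 RNA samples (brain, ovary or uterus, mock or SHT) was read on a single-colour array. The values are the authors' processed Cy5 intensity per probe, as deposited, on a linear scale. The submitters' processing notes name limma with no version or role. The sources used here give no background correction, scaling or genome build. Array medians of 179 to 224 show that no common median had been set.

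Values were raised to each array's 5th percentile of positive values, taken to log2 and centred on each array's median. Of 26423 probes, 20377 had 1 gene symbol in the platform annotation and 6046 had none. Symbols were updated through RefSeq (18213 current, 2126 by synonym, 38 kept as given). The probe with the highest mean over all 6 arrays stood for a gene. With 1 array per group, and pairs chosen by readout, no test was run, and precision is limited by how few arrays there are. The members, the 32 gene lists and the markers were chosen with earlier results of these data known. Named were the 25 largest gaps each way above the background, up to 6 members per list with the largest pair difference, members opposing their list, the markers and the genes at each threshold. The 12 largest differences each way measured on all 4 arrays, and other genes in the text, were chosen after their values were seen. Counts and list medians were recomputed with other floors, centring, probe rules and gap limits and without each array. The computing of gaps and pair differences was tested on simulated log2 values, and the other steps were not. Python 3.11.15, pandas 2.3.3, numpy 2.4.6 and matplotlib 3.10.9 were used.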

Additional observations from a re-analysis of the deposited data

How the results depend on the processing

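Counts of genes depended on the limits and on the scaling. Without centring, 2513 and 2443 genes were higher on the ovary-marker pair and the keratin pair, 374 and 540 of them by 2-fold, and 50.7% of separated genes lay on the ovary-marker side, against 58.4% with centring and 68.1% with the floor at the olfactory receptor 95th percentile. Without the level floor, 6265 genes were higher on the ovary-marker pair and 3920 on the keratin pair, 904 and 795 of them by 2-fold, and with the floor at the 75th percentile the counts were 1998, 1292, 158 and 200. A gap of at least 2 left 177 and 191 genes and a gap of at least 0.5 gave 1152 and 1046. Leaving out 1 array gave 4327 to 5645 genes higher on the ovary-marker pair and 3436 to 3924 on the keratin pair, and 570 to 1013 and 717 to 912 by 2-fold. The side with more 2-fold genes therefore differed between settings. Quantile normalization kept 96.9% and 97.5% of the 2-fold genes of each direction, and the fit without centring 80.0% and 94.1%. Of 32 list medians, 25 moved by less than their spread when arrays were raised to the olfactory receptor 95th percentile, 30 with probes of a gene averaged, 32 without centring and 26 to 28 without any 1 array, and the medians of the cholesterol, fat, endothelium, prostaglandin, housekeeping and oestrogen-responsive lists, all near 0, changed sign as arrays were left out. A change of direction was counted only for genes separated between the pairs, and 1 of the 239 named genes met it. The pair difference of Mbp was 0.14 with the mean of its probes. Leaving out an array cannot turn a separated gene, and sign changes of overlapping named genes were not counted. Signal over background limits the folds of 285 and 281 of the 2-fold genes, whose dimmer pair read inside the background, so that small differences among such genes have no order. No paired analysis was possible because each group holds 1 array and no test was run.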
